A study of Drosophila melanogaster with 6 samples.

Results

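Aminoacyl-tRNA synthetases are the enzymes that join each amino acid to its transfer RNA, and here their transcripts were compared between Drosophila germline stem cells and a cultured cell line. The members were the genes whose symbol in the array's annotation names a synthetase in the form AlaRS or AlaRS-m. The rule found 30 genes among the 10845 measured, 16 with no suffix, taken as cytoplasmic enzymes, and 14 mitochondrial enzymes with the suffix -m. The symbol rule uses no measured value, and all 30 members were tested, with no filter on low signals. RNA was profiled on 1-colour oligonucleotide arrays in 6 samples. The 3 GSC samples held purified germline stem cells of bam mutant ovaries, where such cells accumulate because bam, the gene that starts their differentiation, is disrupted. The 3 Kc samples were Kc cells, an established line of embryonic origin kept in culture. The bam allele and the age of the flies are not given in the labels, the Kc samples represent 1 line, and no stem cells with intact bam are among the samples analysed here. Samples from Dpp-overexpressing ovaries were not analysed here.

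A cell translates in 2 places, and each needs its own set of charged transfer RNAs. Cytoplasmic synthetases charge the transfer RNAs read by the ribosomes that make nearly all proteins. Mitochondrial synthetases are also encoded in the nucleus, are imported, and serve the translation of the few proteins encoded by mitochondrial DNA. The enzymes fall into class I and class II, which have unrelated catalytic folds. In animals some cytoplasmic synthetases are held together with scaffold proteins in a multi-synthetase complex.

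Markers of the labelled cell types were looked at first. Their lists were chosen with earlier results of these data known, so they are not an independent check. All 7 germ cell markers rose in GSC, with a summed signal of 33597 to 38183 in GSC, against 326 to 441 in Kc. Of 7 hemocyte markers, which Kc cells are known to express, 6 fell and NimC1 was dim in both, with sums of 574 to 646 in GSC and 38909 to 43805 in Kc. Markers of other ovarian cells differed too. All 5 yolk and eggshell genes rose (sums of 2932 to 3369 in GSC and 438 to 730.1 in Kc). Of 8 ovarian somatic genes peb rose and zfh1 fell (911 to 1289 in GSC, 3525 to 4045 in Kc). Most of that Kc sum came from zfh1, which averaged 268 in GSC and 3082 in Kc. Of 4 muscle sheath genes 0 had a fold of at least 2 with an adjusted p under 0.05 in limma's test (266 to 393 in GSC, 395 to 588 in Kc). On adjusted p alone 1 was higher and 1 lower. Signal at the 3' end over signal at the 5' end of a transcript, a measure of RNA and labelling quality, was 4.22 to 4.77 on GSC arrays and 1.76 to 1.90 on Kc arrays for actin, 4.63 to 6.09 in GSC and 3.46 to 3.92 in Kc for GAPDH, and 5.21 to 7.03 in GSC and 3.43 to 3.95 in Kc for eIF-4a. The part of these differences in the results that follow was not tested.

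Most synthetase transcripts differed by less than 2-fold between GSC and Kc, and the family did not move in 1 direction. A gene was called at an adjusted p under 0.05 in limma's test over all 13966 probe sets together with a fold of at least 2. By that rule 4 synthetases rose in GSC, the cytoplasmic LeuRS and CysRS and the mitochondrial IleRS-m and AsnRS-m, and 1 fell, the cytoplasmic ValRS. Of all genes 12.6% rose and 8.05% fell, 20.7% in all, so 5 called members of 30 are close to the background. Over all probe sets these shares were 11.7% and 8.11%, together 19.8%. With adjusted p alone and no fold minimum, 8 members were higher and 8 lower, where 22.0% of all genes were higher and 14.4% lower (36.4% together). The log2 folds ran from -1.22 to 1.58, on a scale of log2 after adding 38, the 25th percentile of the deposited signals, to each value. That scale understates the change of dim probe sets. The median was -0.11 for the cytoplasmic and 0.13 for the mitochondrial enzymes, beside 0.04 over all genes. These are bulk samples, so a lower transcript level per cell and fewer cells of one kind cannot be told apart.

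**Figure D1:**
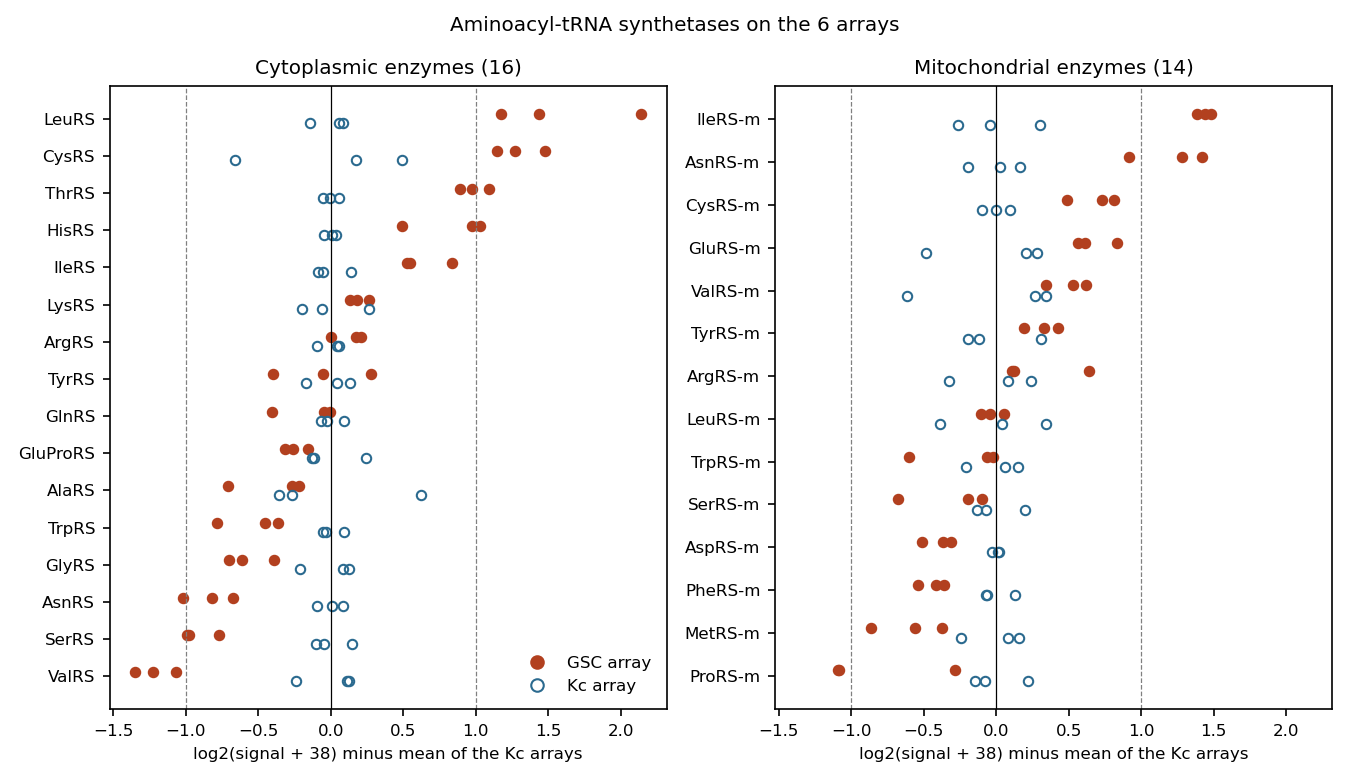
Each point is 1 array, filled for GSC and open for Kc, placed by its log2(signal + 38) minus the mean of the 3 Kc arrays of that gene (x axis, log2 units); the dashed lines mark a 2-fold difference. The 3 GSC points of LeuRS, CysRS and IleRS-m lie right of the 2-fold line, those of ValRS lie left of it, and most other genes lie between the lines.

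Among the cytoplasmic enzymes, LeuRS, which charges the leucine transfer RNA, had the highest fold. It had signals of 1854, 931 and 1122 in GSC, against 351, 416 and 409 in Kc. Every GSC array lay above every Kc array, with the first GSC array the brightest (log2 fold 1.58 ± 0.23, SE, n = 3 arrays each; adjusted p = 0.000429, limma). A second LeuRS probe set, whose probes are designed to be shared by similar transcripts, gave 1011 in GSC and 382 in Kc and was called in the same direction (log2 fold 1.34). The name of the first ends in _r_at, where those of most members end in a plain _at. The part of probe set design in these folds was not tested.

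CysRS, the cysteine enzyme, was also higher in GSC. Its signals were 453, 389 and 352 in GSC and 73.7, 209.8 and 161 in Kc, with no overlap and a low value on Kc 1. The log2 fold was 1.30 ± 0.29 (adjusted p = 0.00659, limma). The call was lost without Kc 1 (log2 fold 0.97), at a pseudocount equal to the median signal (0.87) and with low signals raised to a floor. With the floor the log2 fold was larger, at 1.55, and limma's adjusted p was 0.0646, in a range of 0.000521 to 0.0646 over all settings. Its probe set is also of the kind shared by similar transcripts.

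ValRS, the valine enzyme, was the 1 member that fell. Its signals were 418.5, 371 and 338 in GSC and 774, 998 and 1009 in Kc, and all GSC arrays lay below all Kc arrays (log2 fold -1.22 ± 0.16, adjusted p = 0.000206, limma). With arrays scaled to their hybridisation controls, spiked-in RNAs that do not come from the cells, the log2 fold was -0.79 and the call was lost (adjusted p = 0.0572).

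Several other cytoplasmic enzymes passed on p alone with folds below 2, and their per-array values were chosen for display after they were seen. The threonine enzyme ThrRS had 4639, 4905 and 5309.9 in GSC against 2585, 2388 and 2466 in Kc, a tight pair of groups just short of the fold minimum (log2 fold 0.99 ± 0.10, adjusted p = 3.13e-05, limma). Without GSC 1, without Kc 1, with quantile normalization and with hybridisation control scaling it passed that minimum. The histidine enzyme HisRS had 3280, 4787 and 4600.1 in GSC against 2243, 2342 and 2389 in Kc (log2 fold 0.83), and it passed the minimum without GSC 1, its dimmest GSC array (1.00), and with hybridisation control scaling (1.28). The isoleucine enzyme IleRS had 3480.5, 2837 and 2788 in GSC against 1816, 2130.1 and 1855 in Kc (log2 fold 0.64; 1.08 with hybridisation control scaling).

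In the other direction, the serine enzyme SerRS had 1699.6, 1715 and 1987 in GSC against 3307, 3175 and 3788.5 in Kc, without overlap (log2 fold -0.91 ± 0.11, adjusted p = 0.000163, limma; -1.03, past the fold minimum, with scaling to the median). A second SerRS probe set was far dimmer, at 133 in GSC and 93.6 in Kc, and had a log2 fold of 0.45 (adjusted p = 0.368, limma). The mean over both SerRS probe sets was -0.23 (adjusted p = 0.365). The asparagine enzyme AsnRS had 2608, 2995 and 3317 in GSC against 5345, 4986 and 5640.4 in Kc (log2 fold -0.84 ± 0.11, adjusted p = 0.000269, limma). The glycine enzyme GlyRS (-0.57, adjusted p = 0.00544) and the tryptophan enzyme TrpRS (-0.53, adjusted p = 0.012) followed. These 4 log2 folds stayed below 0 under quantile, median and hybridisation control scaling, but with the last of these they were -0.47, -0.39, -0.12 and -0.10, none past the p threshold (limma's adjusted p of 0.205 to 0.843). With quantile normalization GlyRS also missed it (adjusted p = 0.0549).

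The remaining 6 cytoplasmic enzymes passed neither threshold. GluProRS, which carries the glutamate and proline enzymes in 1 polypeptide, had 1192, 1334 and 1238 in GSC against 1363, 1776 and 1374 in Kc. Its arrays did not overlap, but the groups lay close (log2 fold -0.25 ± 0.13, adjusted p = 0.201, limma). The log2 folds were 0.19 for LysRS, 0.13 for ArgRS, -0.06 for TyrRS, -0.15 for GlnRS and -0.40 for AlaRS, the enzymes for lysine, arginine, tyrosine, glutamine and alanine, and the arrays of the 2 groups overlapped for each. AlaRS had 1620.4, 1684 and 1184.5 in GSC against 3041, 1626 and 1524 in Kc, where the first array was far brighter than the others. GluProRS, TyrRS, GlnRS and AlaRS turned to a positive fold with hybridisation control scaling and passed no threshold there either.

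The mitochondrial enzymes that rose were those for isoleucine and asparagine. IleRS-m had 492, 506 and 470 in GSC against 124, 151 and 203 in Kc, so the 3 GSC arrays agreed closely and lay well above Kc (log2 fold 1.44 ± 0.20, adjusted p = 0.000327, limma). AsnRS-m had 341, 255 and 377 in GSC against 97.8, 136 and 120.5 in Kc (log2 fold 1.20 ± 0.23, adjusted p = 0.00236, limma), again without overlap. The AsnRS-m call was lost when the pseudocount was the median of all values, 162 (log2 fold 0.79). The cysteine enzyme CysRS-m averaged 512 ± 63.5 in GSC, against 305 ± 23.1 in Kc (± SD, n = 3 each; log2 fold 0.68, adjusted p = 0.00879, limma), short of a 2-fold difference, though past it when scaled to hybridisation controls (1.09).

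Of the mitochondrial enzymes 0 fell by limma's test with the fold minimum, 3 were lower on adjusted p alone and 4 at an unadjusted p under 0.05. MetRS-m, for methionine, averaged 373 ± 68.2 in GSC, against 582 ± 88.3 in Kc (± SD, n = 3 each; log2 fold -0.60, adjusted p = 0.03, limma), and a second, more variable probe set gave 209 and 262 (-0.43, adjusted p = 0.481). PheRS-m, for phenylalanine, averaged 862 ± 56.6 in GSC, against 1180.5 ± 99.6 in Kc (log2 fold -0.44, n = 3 each, adjusted p = 0.0197, limma). AspRS-m, for aspartate, averaged 790.4 ± 58.7 in GSC, against 1052 ± 20.6 in Kc (log2 fold -0.40, n = 3 each, adjusted p = 0.0264, limma). With hybridisation control scaling neither PheRS-m nor AspRS-m was below 0, and AspRS-m had a log2 fold of 0.04. MetRS-m had -0.18 with that scaling (adjusted p = 0.728, limma) and -0.51 with the mean over its probe sets (adjusted p = 0.108, limma). ProRS-m, for proline, had 50.4, 116 and 49.8 in GSC against 139.6, 180.1 and 131 in Kc (log2 fold -0.82, adjusted p = 0.0745), and without GSC 2 it was called (-1.09, adjusted p = 0.0356, limma; 0.0356 to 0.427 over all settings).

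The other 7 mitochondrial enzymes had adjusted p-values of 0.14 or more. Their log2 folds were 0.67 for GluRS-m, 0.50 for ValRS-m, 0.32 for TyrRS-m, 0.29 for ArgRS-m, -0.03 for LeuRS-m, -0.23 for TrpRS-m and -0.32 for SerRS-m. The last 3 had positive folds with hybridisation control scaling. GluRS-m is the next protein-coding gene to TyrRS in RefSeq, and the 2 neighbours had log2 folds of 0.67 and -0.06. In 6 of the 14 mitochondrial enzymes at least 1 group averaged under 162, the median of all values, against 1 of the 16 cytoplasmic enzymes, so the mitochondrial set holds more members whose folds are held back by the pseudocount. On the 6 arrays, 19 of the 30 members did not overlap between groups, 9 with GSC above Kc and 10 below, where 47.1% of all genes did not overlap (27.6% above and 19.5% below).

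For the amino acids whose cytoplasmic and mitochondrial enzymes were both measured, the 2 enzymes were set against each other within each array. Signals of different probe sets cannot be compared as levels, so what follows is the difference between the 2 log2 folds, cytoplasmic minus mitochondrial. There were 11 such pairs, 9 of separate genes and 2 in which GluProRS was paired with GluRS-m and with ProRS-m. RefSeq also lists both genes for alanine, aspartate and methionine, but AlaRS-m, AspRS and MetRS were not analysed here. The 2 enzymes of an amino acid often differed in direction or size, and 8 of the 11 differences were negative. Every GSC array lay below every Kc array in 5 pairs and above in 2. Both pairs with GluProRS are among these 7. Quantile normalization left 5 pairs without overlap, while averaging over probe sets or a pseudocount of 162 left 6. Leaving out 1 array, so that fewer arrays were compared, gave 7 to 9. Of single genes 47.1% did not overlap. How often pairs of other genes fail to overlap or differ in a negative direction was not tested. The arginine difference was positive without GSC 2 (0.08) and without Kc 1 (0.02), and the serine one with the mean over probe sets (0.09). The differences are given with their SE and no p-value: they were not fitted across all features as the genes were, and for a single value the exact permutation test of 3 arrays against 3 has a smallest p of 0.1.

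The asparagine, valine and leucine pairs differed most, and their order changed with the setting. AsnRS was lower and AsnRS-m higher in GSC, and the difference between the log2 folds was -2.04 ± 0.21 (SE from the spread over arrays). The log2 gap between AsnRS and AsnRS-m was 2.81, 3.37 and 3.02 in GSC, against 5.31, 4.85 and 5.16 in Kc, with no overlap. Leaving out any 1 array gave differences from -2.20 to -1.91. With quantile normalization it was -1.73, beside -1.77 for the valine pair (ValRS and ValRS-m). With a pseudocount of 1 the asparagine difference was -2.29, and with the median signal as pseudocount it was -1.60.

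The valine pair had a difference of -1.71 ± 0.20. ValRS fell, while ValRS-m was dim in both groups, at 78.1, 85.5 and 64.0 in GSC and 14.5, 64.1 and 58.9 in Kc. The gap between the 2 was 1.98, 1.73 and 1.88 in GSC and 3.95, 3.34 and 3.43 in Kc. Since ValRS-m lay near the pseudocount, the difference depended on the pseudocount, at -2.25 for 1 and -1.22 for the median signal.

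The leucine pair ran the other way, with a difference of 1.62 ± 0.29. LeuRS rose, while LeuRS-m had 599, 560 and 534 in GSC against 432, 744 and 596 in Kc, and its groups overlapped. The gap was 1.57, 0.70 and 1.02 in GSC and -0.27, -0.78 and -0.50 in Kc, without overlap.

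In the isoleucine pair both enzymes were higher in GSC, the mitochondrial one by more, and the difference was -0.80 ± 0.21. It was -0.91 ± 0.25 for GluProRS with GluRS-m and 0.57 ± 0.23 for GluProRS with ProRS-m. With a pseudocount of 1 these 3 differences were -0.99, -1.31 and 0.90. With the median signal as pseudocount they were -0.42, -0.54 and 0.20. At the pseudocount of 38 the gaps of these 3 pairs did not overlap between the groups. Nor did those of the serine pair (-0.59 ± 0.21), but with the mean over the SerRS probe sets that difference was 0.09. The cysteine (0.62 ± 0.38), tyrosine (-0.37 ± 0.30), tryptophan (-0.30 ± 0.17) and arginine (-0.16 ± 0.30) pairs overlapped.

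**Figure D2:**
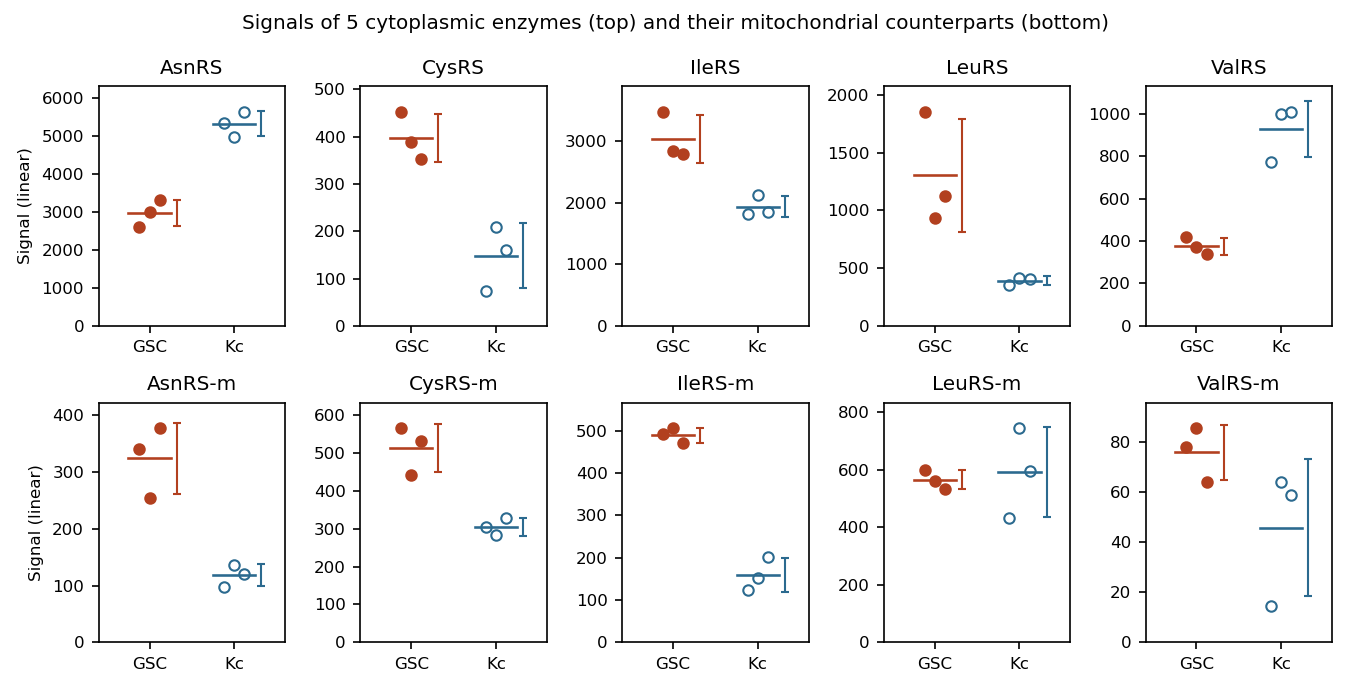
Deposited signal (y axis, linear, starting at 0) on each array for 5 cytoplasmic enzymes and, under each, the mitochondrial enzyme of the same amino acid, with GSC at the left and Kc at the right; lines are means and bars are SD over 3 arrays. AsnRS and AsnRS-m run in opposite directions, and LeuRS differs between groups where LeuRS-m overlaps.

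**Figure D3:**
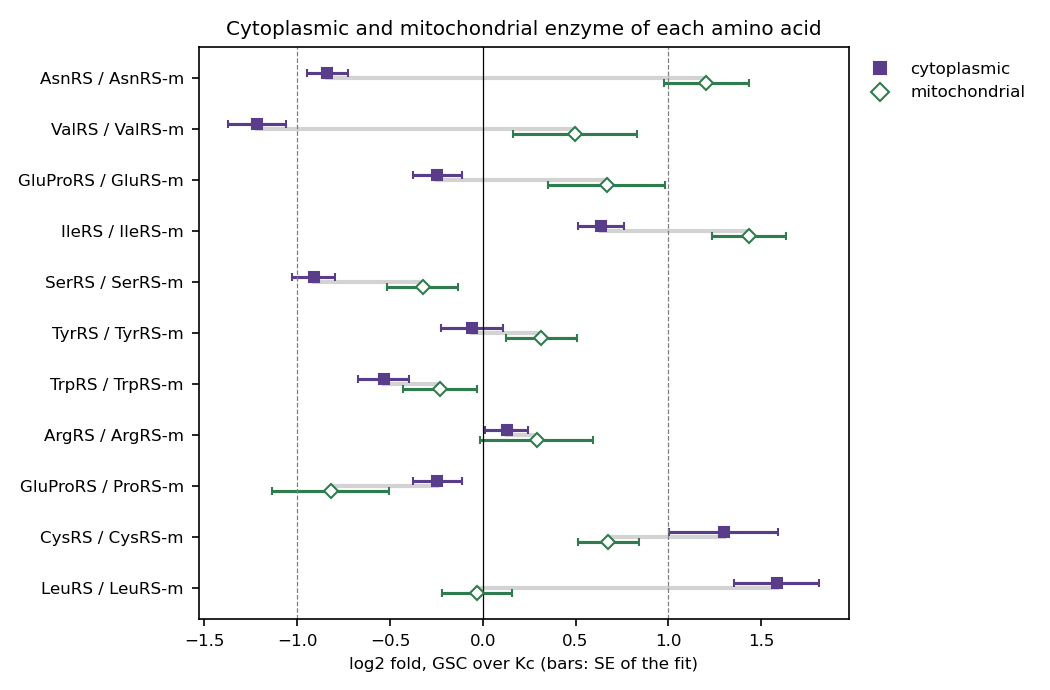
Log2 fold of GSC over Kc (x axis) for the cytoplasmic enzyme (square) and the mitochondrial enzyme (diamond) of each amino acid, ordered by the difference between them, with SE bars from the limma fit and dashed lines at a 2-fold difference. Asparagine and valine show the widest gaps with the cytoplasmic enzyme at the left, and leucine the widest with it at the right.

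RefSeq lists no gene with an -m symbol for glutamine, glycine, histidine, lysine or threonine. Compartment was assigned by the suffix alone. A gene that serves both compartments would therefore stand in the cytoplasmic counts and median, and the symbols do not show which genes do. Of these 5 cytoplasmic symbols, 0 were called by limma's test with the fold minimum, where 20.7% of all genes were called. On adjusted p alone, as on unadjusted p, ThrRS and HisRS were higher and GlyRS lower. On adjusted p alone 22.0% of all genes were higher and 14.4% lower. In mitochondria of many species, glutamine is placed on its transfer RNA by first charging it with glutamate and then amidating it. GatA, a subunit of the amidating enzyme, averaged 808 ± 74.2 in GSC, against 943 ± 62.8 in Kc (± SD, n = 3 each; log2 fold -0.22, adjusted p = 0.245, limma).

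Properties that the symbol rule did not use were looked at next. In mammals the cytoplasmic enzymes for arginine, glutamine, glutamate and proline, isoleucine, leucine and lysine are among those in the multi-synthetase complex. The measured members that correspond to these number 6. AspRS and MetRS were not analysed here and stand in neither group below. Of the 6, LeuRS rose and 0 fell, with a median log2 fold of 0.16. Of the 10 outside the complex, CysRS rose and ValRS fell, with a median of -0.47. Over all genes 12.6% were called higher and 8.05% lower. Of the 3 scaffold genes of the complex 0 were called, and 2 were lower at an unadjusted p under 0.05 (AIMP2 and AIMP3): AIMP1 averaged 1556 ± 234 in GSC, against 1356 ± 98.4 in Kc, AIMP2 4335 ± 861 in GSC, against 6077 ± 232 in Kc, and AIMP3 1355 ± 58.4 in GSC, against 1886 ± 482 in Kc (± SD, n = 3 each). Their log2 folds were 0.19, -0.50 and -0.43, with limma's adjusted p = 0.342, 0.0215 and 0.0919.

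By catalytic class, 3 of 17 class I enzymes rose and 1 fell, with a median log2 fold of 0.29. Of 12 class II enzymes 1 rose and 0 fell, with a median of -0.40. The shares over all genes were 12.6% higher and 8.05% lower. GluProRS holds an enzyme of each class and was counted in neither. Within the mitochondrial set the medians were 0.32 for 9 class I and -0.40 for 5 class II enzymes, and within the cytoplasmic set 0.04 for 8 class I and -0.40 for 7 class II enzymes. The difference between the classes was not tested, and enzymes of both classes lie on either side of 0.

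The subunits of the cytoplasmic phenylalanine enzyme, whose symbols fall outside the rule, differed little. Of the list of 3 that held them, 2 were measured. alpha-PheRS averaged 1984 ± 338 in GSC, against 1675 ± 79.4 in Kc (± SD, n = 3 each), and beta-PheRS 1411 ± 73.3 in GSC, against 1214 ± 104 in Kc. Their log2 folds were 0.23 and 0.21 (limma's adjusted p = 0.263 and 0.203).

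Genes that act beside the synthetases were taken from lists of translation, transfer RNA and amino acid stress genes. Of 34 measured in all 6 lists, the phenylalanine and scaffold genes included, 3 rose and 4 fell, against 12.6% and 8.05% of all genes. In mitochondrial translation, 2 of 9 factors rose and 1 fell, with a median of 0.18. On adjusted p alone 3 were higher and 3 lower, where 22.0% and 14.4% of all genes were. Among those lower were mEFTs (log2 fold -0.90, adjusted p = 0.0017, limma) and mEFTu1 (-0.64, adjusted p = 0.000573, limma), both without overlap. The initiation factor gene mIF2 had 558, 695 and 637 in GSC against 37.6, 60.8 and 108 in Kc (log2 fold 2.69 ± 0.26, adjusted p = 3.62e-05, limma), a larger fold than that of any synthetase here. The ribosome recycling factor gene mRRF1 had 342, 331 and 325 in GSC against 18.6, 68.0 and 146 in Kc (log2 fold 1.84). The lowest Kc signals of mIF2 and mRRF1, 37.6 and 18.6, lay under the pseudocount of 38. Over all settings the log2 folds ran from 1.79 to 3.32 for mIF2 and from 1.08 to 2.52 for mRRF1. The initiation factor gene mIF3 was dim, at 44.2, 45.9 and 8.3 in GSC against 130.0, 105 and 95.5 in Kc, and its fall of 1.11 on the log2 scale (adjusted p = 0.0254, limma) was not called without GSC 3 (-0.83), without Kc 1 (adjusted p = 0.0672), without Kc 2 (adjusted p = 0.0568), with the median as pseudocount (-0.49) or with hybridisation control scaling (-0.80).

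In the cytoplasm, the 6 measured elongation and release factors (9 listed) had a median log2 fold of 0.36. Against 12.6% and 8.05% of all genes, 1 of the 6 rose and 0 fell. It was eEF1delta, a subunit of the factor that recharges the elongation factor with GTP, at 7487, 8544 and 7849 in GSC against 3181, 4773 and 3383 in Kc (log2 fold 1.09 ± 0.15, adjusted p = 0.000315, limma). It was just under the fold minimum without Kc 1 (0.98) and with scaling to the median (0.96).

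Of 5 measured genes of the amino acid stress response (7 listed), 2 fell and 0 rose. The shares over all genes were 8.05% lower and 12.6% higher. The median log2 fold of the 5 genes was -0.25. In mammals the transcription factor ATF4 activates many synthetase genes when amino acids are short, and its fly counterpart crc had 4728, 5072 and 4891 in GSC against 10113, 11208 and 11096 in Kc. Every GSC array lay below every Kc array (log2 fold -1.13 ± 0.09, adjusted p = 8.77e-06, limma), a call lost with quantile normalization (-0.82) and hybridisation control scaling (-0.68). Sesn, a stress-induced regulator of growth signalling, had 52.9, 50.7 and 79.6 in GSC against 262.5, 256 and 296 in Kc (log2 fold -1.65; -0.96 with the median as pseudocount, where the call was lost). The kinase genes that act upstream of ATF4, Gcn2 and PEK, had log2 folds of 0.55 (adjusted p = 0.0894, limma) and -0.25 (adjusted p = 0.174). PPP1R15, a phosphatase subunit that counters these kinases, ran the other way, at 962, 818 and 689 in GSC against 329.8, 554 and 415 in Kc. Every GSC array lay above every Kc array, at a fold under 2 (log2 fold 0.89 ± 0.20, adjusted p = 0.00652, limma).

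Of 9 measured genes of transfer RNA processing and modification (11 listed), 1 fell and 0 rose, against 8.05% and 12.6% of all genes. The median log2 fold of the 9 genes was 0.01. The member that fell was Tgt, which exchanges guanine for queuine in the anticodons of the asparagine, aspartate, histidine and tyrosine transfer RNAs. It had 611, 625 and 708 in GSC against 1548, 1723 and 1706 in Kc (log2 fold -1.31 ± 0.12, adjusted p = 2.04e-05, limma; -0.87 with hybridisation control scaling, below the minimum). The cytoplasmic synthetases of the same amino acids had log2 folds of -0.84 (AsnRS), 0.83 (HisRS) and -0.06 (TyrRS), and AspRS was not analysed here. The mitochondrial ones had 1.20 (AsnRS-m), 0.32 (TyrRS-m) and -0.40 (AspRS-m).

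Ribosomal proteins were set beside the synthetases as the other large protein families of translation. Of 64 mitochondrial ribosomal protein genes 2 rose and 1 fell, with a median log2 fold of 0.06, and the range from the 25th to the 75th percentile spanned -0.29 to 0.43. Of 37 cytoplasmic ribosomal protein genes 4 rose and 0 fell, with a median of 0.04 and a span of -0.12 to 0.35. The highest log2 fold in this list, which was taken by symbol alone, was 5.54, far outside that span. In the mitochondrial list the highest was 1.27. Over all genes 12.6% were called higher and 8.05% lower. The cytoplasmic synthetases spanned -0.54 to 0.69 and the mitochondrial ones -0.38 to 0.62, beside -0.33 to 0.55 for all genes. The difference in spread between these families was not tested.

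**Figure D4:**
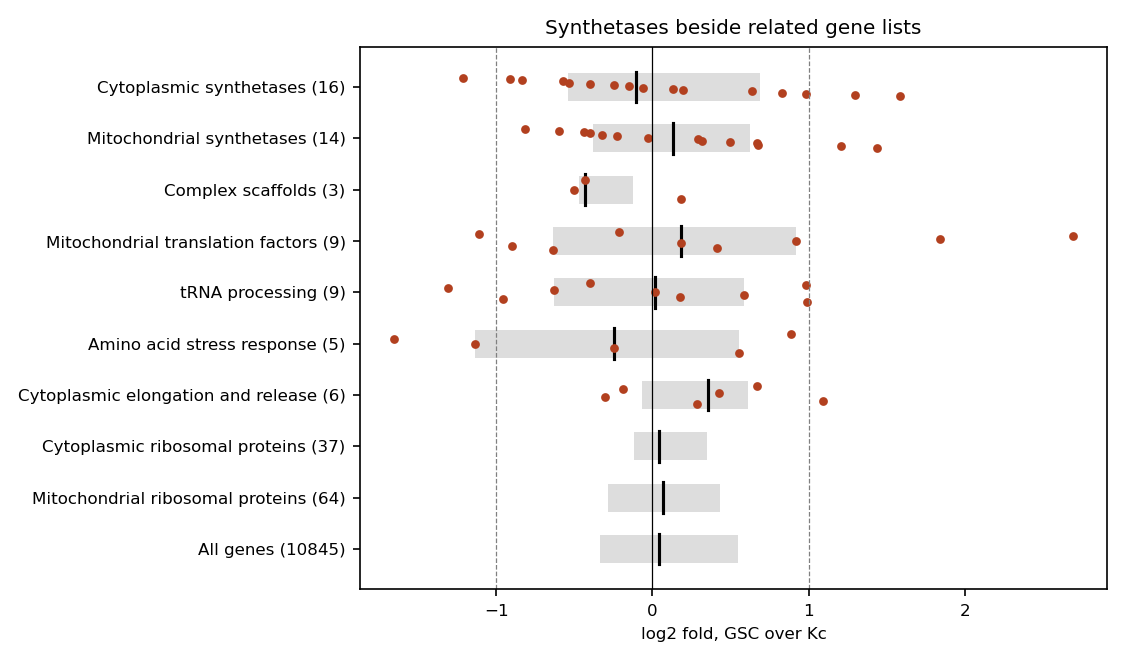
Log2 fold of GSC over Kc (x axis) for the synthetases and related lists, with the number of measured genes in brackets; black lines are medians, grey bars run from the 25th to the 75th percentile, dots are single genes (not drawn for ribosomal proteins and all genes), and dashed lines mark a 2-fold difference. The medians of both synthetase sets lie near 0, and mIF2 at 2.69 is the farthest right of the points drawn.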

How the data were processed

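Each array's deposited intensities, 1 for a probe set, were linear values; per the submitters' processing notes the tool was MAS5. Its version is not given in the sources used here, nor are its settings. The trimmed mean signal was near 500 on every array (499.5 to 499.6), so no second normalization was applied. Medians ran from 164.7 to 176.5 in GSC and 148.5 to 161 in Kc. The number of arrays limits the precision. The labels call the arrays replicates without naming separate cultures or dissections, so each p-value reflects the spread among these 6 samples alone and part of that may be technical.

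After removing 44 control probe sets, 13966 were tested as log2(signal + 38) with lmFit and eBayes (trend and robust) of limma 3.58.1 in R 4.3.3, two-sided, with Benjamini-Hochberg adjustment over all of them. Where a gene had several probe sets, the brightest on average stood for it. The annotation gave 12443 probe sets 1 symbol, and 12394 of these matched RefSeq (Release 6 plus ISO1 MT) by gene identifier. Of 33 RefSeq symbols that fit the member rule, 30 were measured. Every member is named. Signals per array are given for up to 4 called members with the largest folds in each direction and compartment, which takes in all 5 called members, for GluProRS and for the 3 widest pairs, with the exceptions stated. From each related list up to 3 called genes are named, and other genes of these lists (GatA, mEFTs, mEFTu1, Gcn2, PEK and PPP1R15) were named after their values were seen. Members and lists were chosen with earlier results of these data known. The fit was tested on simulated data.

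Replicate numbers did not pair the samples (correlations of deviations of -0.03, 0.04 and -0.01), and every column belonged to a sample.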

Additional observations from a re-analysis of the deposited data

How the results depend on the processing

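Alternatives changed the pseudocount, the scaling, the filter, the variance prior, the fold minimum, the probe set rule and the arrays used; those for related genes were chosen after seeing the data. Of the 5 called synthetases, LeuRS and IleRS-m were called the same way under all 19 alternatives, and the exceptions of the others stand with their values. Some of the 19 could not remove a call. The relaxed fold minimums only admit more genes, and the highest mean log2 value picked the same probe sets. With 1 probe set, IleRS-m also kept its fold with the mean over probe sets. With the pseudocount at the median, the calls over all probe sets numbered 956 higher and 734 lower, against 1633 and 1132, and 1 cytoplasmic and 1 mitochondrial enzyme rose; the mitochondrial median was 0.058, and 2 related genes fell. Scaling to hybridisation controls gave 2821 higher and 688 lower (80.4% of calls higher, against 59.1%) and shifted all probe sets to a median of 0.32, against 0.03; 5 cytoplasmic enzymes rose and 0 fell, the medians were 0.34 (cytoplasmic) and 0.50 (mitochondrial), which is 0.02 and 0.18 above that shift, and 9 related genes rose and 1 fell. With no fold minimum 2811 were higher and 2002 lower, and with a fold of at least 1.5, 2528 and 1739. Without the minimum 5 cytoplasmic enzymes were higher, 5 cytoplasmic and 3 mitochondrial lower, and 8 related genes higher and 11 lower; at 1.5 these were 5, 3, 1, 8 and 8. Scaling to the median gave 2 cytoplasmic enzymes lower and a mitochondrial median of 0.026, quantile normalization one of -0.022, and the floor 1 cytoplasmic enzyme higher. A pseudocount of 1 and the floor each gave 5 related genes higher. Leaving out each array gave 2 to 4 cytoplasmic enzymes higher (4 without GSC 1), 0 to 1 mitochondrial lower (1 without GSC 2), mitochondrial medians of -0.014 to 0.19 (0.044 without GSC 2 and -0.014 without Kc 1) and 2 to 6 related genes higher (6 without Kc 2). The fit with the replicate block, on numbers that do not pair the samples, gave 1619 higher and 1120 lower and changed no synthetase call. Causes of these changes were not tested, apart from the fold minimum, which by construction admits more genes. Folds of members near the pseudocount are limited by signal over background, which is not recorded in the table.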
